A study of Homo sapiens with 54 samples.

Results

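The genes described are 10 negative feedback genes and targets of the MAPK pathway: DUSP1, DUSP4, DUSP5, DUSP6, SPRY2, SPRY4, SPRED1, SPRED2, ETV4 and ETV5. They were chosen by symbol, and all 10 were found among the 27470 genes of the table. Their RNA was measured by 3′ end sequencing in 2 triple negative breast cancer (TNBC) lines, SUM1315, which is BRCA1 mutant, and MDA-MB-468, which is BRCA1 wild type. Each line had 9 conditions of 3 libraries, 54 libraries in all. Olaparib is a PARP inhibitor, and cisplatin (CDDP) is a platinum drug that crosslinks DNA. Parental SUM1315 cells were untreated or received 8 µM olaparib, 2 or 4 µM CDDP, or olaparib with either CDDP dose. Parental MDA-MB-468 cells were untreated or received 3 µM olaparib, 1 or 2.5 µM CDDP, or olaparib with either CDDP dose. Olaparib resistant (OlaR) cells of each line had been selected by rising olaparib concentrations and were kept in 25 µM (SUM1315) or 15 µM olaparib (MDA-MB-468), alone or with either CDDP dose. OlaR cells therefore differed from olaparib-treated parental cells in olaparib dose and duration as well as in selection, and these cannot be told apart.

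Growth factor receptors signal through RAS, RAF and MEK to the MAP kinase ERK, and active ERK induces genes whose products switch the pathway off again. DUSP proteins are phosphatases that remove the activating phosphates from MAP kinases. DUSP5 (nuclear) and DUSP6 (cytoplasmic) prefer ERK, and DUSP1 and DUSP4 (nuclear) also act on p38 and JNK, the stress-activated MAP kinases. SPRY and SPRED proteins restrain signalling between the receptor and RAF, and SPRED proteins do so with neurofibromin. ETV4 and ETV5 are ETS transcription factors of the PEA3 group that respond to ERK activity. DUSP6, SPRY4, ETV4 and ETV5 are widely used as readouts of ERK output in tumour cells.

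Promoter sequence is shown for DUSP1, the member that rose furthest with CDDP, for DUSP6, whose untreated levels stood furthest apart between the lines, and for SPRY2, which rose when CDDP was added to olaparib and fell when it was added to OlaR SUM1315 cells. Each window is the 250 bases before the transcript start, 5′ to 3′ on the minus strand, from RefSeq on GRCh38.p14. Capitals mark TGACGTCA or its first 7 letters, TGACGTC (the cyclic AMP response element, CRE), and CCGGAA (an ETS core), on either strand. TGANTCA (AP-1) was searched too.
DUSP1, chr5:172771196-172771445: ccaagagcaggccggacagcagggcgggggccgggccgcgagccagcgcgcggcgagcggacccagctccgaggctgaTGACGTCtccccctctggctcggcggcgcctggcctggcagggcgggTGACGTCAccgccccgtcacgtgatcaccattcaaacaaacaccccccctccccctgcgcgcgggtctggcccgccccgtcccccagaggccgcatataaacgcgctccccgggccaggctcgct
DUSP6, chr12:89352502-89352751: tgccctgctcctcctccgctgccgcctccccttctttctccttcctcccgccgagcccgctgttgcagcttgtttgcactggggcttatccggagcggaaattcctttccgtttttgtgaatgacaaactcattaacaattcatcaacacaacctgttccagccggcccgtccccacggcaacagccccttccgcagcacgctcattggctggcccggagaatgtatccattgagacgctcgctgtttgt
SPRY2, chr13:80341127-80341376: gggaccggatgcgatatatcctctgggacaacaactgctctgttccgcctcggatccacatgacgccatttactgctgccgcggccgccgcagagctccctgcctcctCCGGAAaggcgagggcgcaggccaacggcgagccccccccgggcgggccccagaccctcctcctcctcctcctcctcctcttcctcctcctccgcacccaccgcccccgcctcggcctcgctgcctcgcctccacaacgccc
The DUSP1 window held TGACGTCA once, starting 125 bases before the transcript start, and a separate TGACGTC starting 172 bases before it. TGACGTCA occurred in 1.65% of 35116 such windows and TGACGTC, which it contains, in 3.12%. The SPRY2 window held CCGGAA once, starting 142 bases before the transcript start, and 14.5% of windows held it. The DUSP6 window held none of the 4 letter strings, and TGANTCA, found in 6.57% of windows, was in none of the 3 windows. Such matches describe letters only. DUSP1 spans chr5:172768096-172771195, DUSP6 chr12:89347235-89352501 and SPRY2 chr13:80335976-80341126, all on the minus strand. The 3′ ends of DUSP1 and ETV4, where these libraries read, lie within a gene on the opposite strand (for ETV4, DHX8), and whether the counting used strand is not given in the sources used here.

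Values are adjusted read counts, reads per gene that the authors scaled with edgeR to a common library size of 5585170 reads. By the whole reads recovered from them, a library held 2070301 to 9268162 reads, with medians of 6173974 in parental and 3900438 in OlaR SUM1315 cells and of 7331369 and 4455837 in MDA-MB-468 cells. Levels are given as mean ± SD of n = 3 libraries. Differences are log2 fold changes of the value plus a pseudocount of 1, tested with limma and adjusted by the Benjamini-Hochberg method over all genes tested. "Rose" and "fell" are used at an adjusted p of at most 0.05, and a DEG also changed at least 2-fold. The labels do not say that the 3 libraries of a condition came from separate cultures, so p-values measure the spread between these libraries, which may be technical. Of 5 epithelial markers, EPCAM, CDH1 and KRT19 had at most 5 reads in any SUM1315 library, KRT8 was at 17.7 to 154 and KRT18 at 231 to 598, and VIM, a mesenchymal marker, was at 7929 to 13246. In MDA-MB-468 cells KRT19 was at 9303 to 17657, KRT18 at 584 to 833, which overlaps with SUM1315, and VIM at 7.99 to 53.8. The leukocyte marker PTPRC had at most 8 reads in any library. The endothelial marker PECAM1 and the fibroblast marker COL1A1 reached 207.5 and 796 in SUM1315 cells, and their part in the results was not tested.

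All 10 members had a higher mean in untreated SUM1315 cells than in untreated MDA-MB-468 cells, beside 50% of 14460 genes. DUSP6 stood furthest apart, with 6849.7, 7715 and 5430.5 in the untreated SUM1315 libraries and 36.0, 25.5 and 18.9 in the untreated MDA-MB-468 libraries, a ratio of means of 249. SPRY4 followed, at 204 ± 28.5 against 2.35 ± 0.904, a ratio of 86.6. SPRY4 had at most 11 reads in any MDA-MB-468 library and passed the filter on low values only in SUM1315 cells. The ratio was 14.7 for ETV5 (1153 ± 138 against 78.5 ± 24.0) and 2.44 to 6.23 for the other 7 members. Over all 54 libraries, 7 members lay higher in SUM1315 cells with no overlap between the lines, beside 11.7% of genes, namely DUSP4, DUSP6, SPRY4, SPRED1, SPRED2, ETV4 and ETV5. DUSP1, DUSP5 and SPRY2 overlapped. These levels are a description, with no test, since the libraries were pooled for sequencing 27 at a time and which of them shared a pool is not given in the sources used here. If each line was 1 pool, line and pool cannot be told apart.

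**Figure D1:**
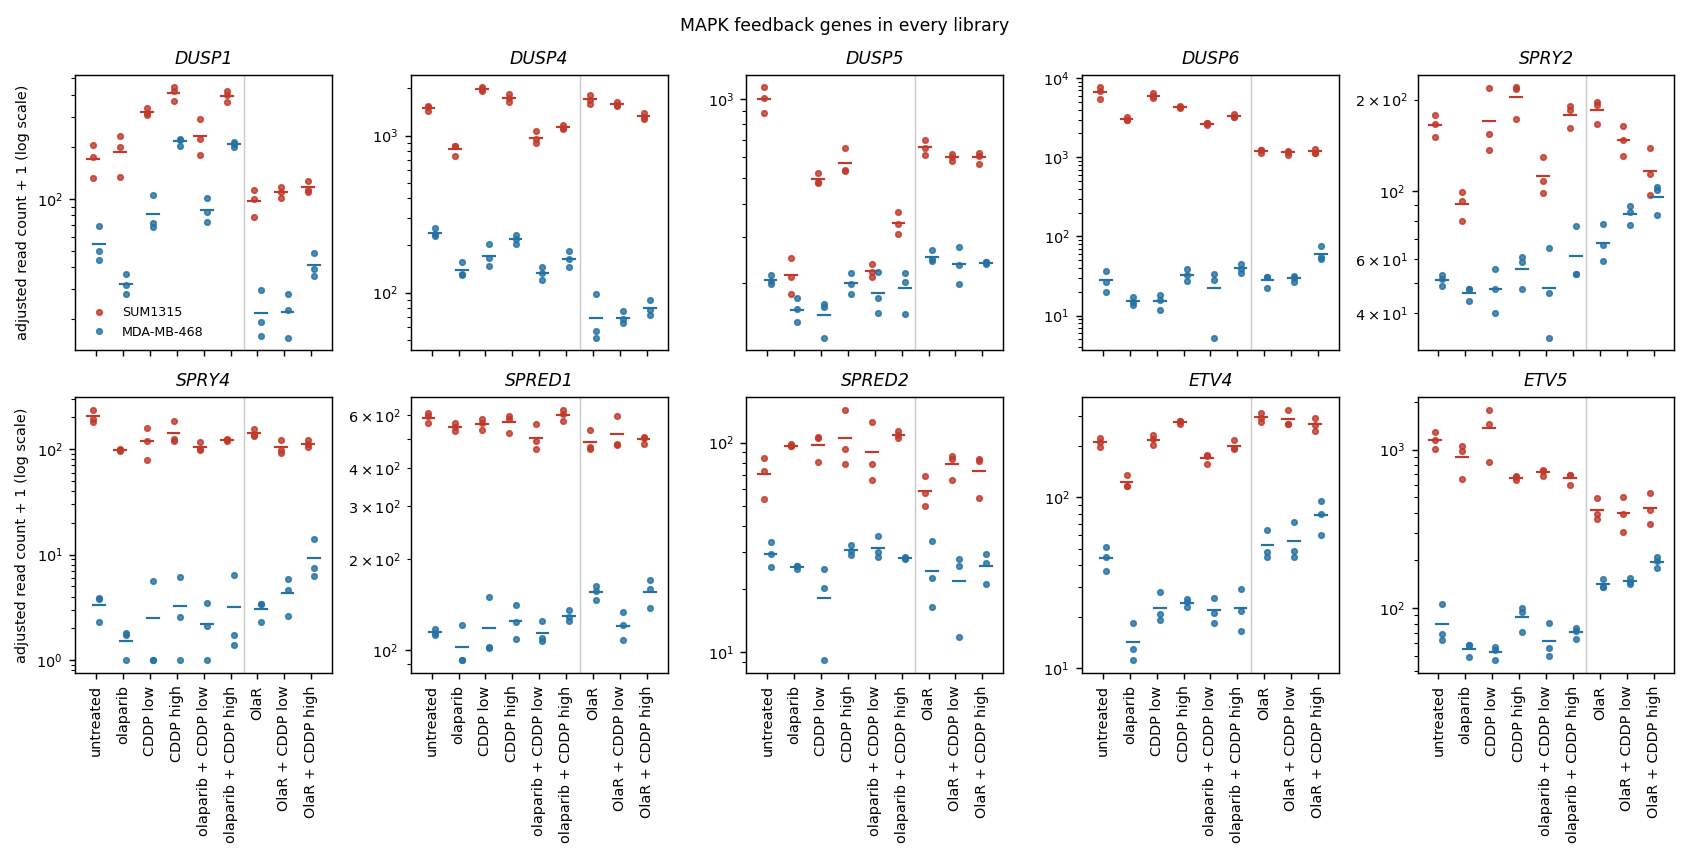
Adjusted read count plus 1 (log scale, a separate scale for each gene) of the 10 genes in each library of the 9 conditions, with SUM1315 in red, MDA-MB-468 in blue and a short line at the mean of 3 libraries. The grey line separates parental from OlaR cells. DUSP6 is between 1081 and 7715 in every SUM1315 library and at most 74.3 in MDA-MB-468, and SPRED1 is nearly level across the conditions of SUM1315.

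The members also differed in how far they moved across the 9 conditions of SUM1315 cells. The highest condition mean was 5.80 times the lowest for DUSP6, 4.67 for DUSP5, 4.31 for DUSP1 and 1.23 for SPRED1. In MDA-MB-468 cells the ratio for DUSP1 was 10.4, and SPRY4, at 16.1, had too few reads to be tested. DUSP6 in MDA-MB-468 cells rested on 7 to 63 reads a library, so that its folds there are imprecise. ETV4 and SPRED2 had similarly few reads there, 15 to 68 and 7 to 48 a library.

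Olaparib alone was asked of both parental lines. In SUM1315 cells, 6 of 10 members fell and none rose, beside 17.1% of all 13133 genes tested that fell and 18.9% that rose. The members' median difference was -0.82, and that of all genes was -0.0026. The ERK phosphatase DUSP5 moved furthest, from 883, 1004 and 1108 in untreated libraries to 210.2, 249.7 and 182 with olaparib. Its groups did not overlap, and the difference was -2.22 (standard error 0.11, adjusted p = 2.04e-16).

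The other members that fell with olaparib in SUM1315 cells came from each of the gene families except SPRED. DUSP6, the cytoplasmic ERK phosphatase, went from 6665 ± 1153 to 3045 ± 140 (difference -1.12, standard error 0.09, adjusted p = 3.59e-11). SPRY4 went from 204 ± 28.5 to 96.7 ± 3.07 (difference -1.06, standard error 0.19, adjusted p = 5.34e-05). DUSP5, DUSP6 and SPRY4 were DEGs, beside 4.36% of genes tested that were DEGs with a lower level. DUSP4 (-0.87), SPRY2 (-0.86) and ETV4 (-0.78) fell by less than 2-fold. ETV5 had a difference of -0.39 (adjusted p = 0.124), DUSP1 of 0.12 (adjusted p = 0.634), SPRED1 of -0.10 and SPRED2 of 0.48. The libraries of 7 members did not overlap between the conditions, beside 44.8% of genes.

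In MDA-MB-468 cells, 5 of 9 members tested fell with olaparib and none rose, beside 9.11% of 13012 genes that fell and 12.4% that rose. ETV4 was the only member that was a DEG, beside 1.08% of genes that were DEGs with a lower level. It was at 36.1, 43.4 and 50.4 in untreated libraries and at 17.3, 10.1 and 11.9 with olaparib, on 15 to 68 reads a library. The groups did not overlap, as in 33.8% of genes, and the difference was -1.67 (standard error 0.29, adjusted p = 1.10e-05). DUSP4 fell from 240.3 ± 15.0 to 138 ± 14.3 (-0.80, adjusted p = 0.000161).

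The remaining calls in MDA-MB-468 cells were less firm. DUSP1 fell by 0.75 (adjusted p = 0.0141), and the call was lost without olaparib replicate 2 or untreated replicate 3, with an adjusted p of up to 0.129. DUSP5 fell by 0.38 (adjusted p = 0.0336), and was no longer called without any 1 of 5 of the 6 libraries, all but olaparib replicate 3 (adjusted p up to 0.162). ETV5 fell by 0.49 (adjusted p = 0.0490), and was lost without any olaparib library or without untreated replicate 3 (adjusted p up to 0.421). DUSP6 was at 26.8 ± 8.64 without and 14.3 ± 1.83 with olaparib, and that difference of -0.82 did not pass (adjusted p = 0.121).

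The 12 other ERK target genes on the list, which include genes of transcription factors, ligands, receptors and cyclin D1, gave counts in the same direction. This list was chosen with earlier results of these data known and comes from the same libraries, so it is not an independent check. In SUM1315 cells 8 of 12 fell with olaparib and 1 rose, beside 17.1% and 18.9% of genes, with a median of -0.93. HBEGF, a ligand of the EGF receptor, fell furthest among the 3 with the smallest p (529 ± 81.6 to 109 ± 11.8, -2.27). In MDA-MB-468 cells 6 of 11 tested fell and none rose, beside 9.11% and 12.4% of genes, with a median of -0.52. EGR1, an immediate early transcription factor, went from 793 ± 49.4 to 326 ± 50.5 there (-1.29). The 19 genes of the RAS-ERK cascade itself moved both ways, with 7 that rose and 3 that fell in SUM1315 cells and 3 that rose and 1 that fell in MDA-MB-468 cells. The same shares of all genes stand beside these counts and those of the lists that follow. Of 6 other MAP kinase phosphatases, 1 fell in each line, DUSP8 in SUM1315 cells (-0.94) and DUSP16 in MDA-MB-468 cells (-0.52). Of 12 genes of the p38 and JNK cascades, 2 rose and 3 fell in SUM1315 cells and 2 fell in MDA-MB-468 cells. Of SPRY1, SPRY3, SPRED3 and ETV1, 3 were tested in each line, and 1 rose and 1 fell in SUM1315 cells and 1 fell in MDA-MB-468 cells.

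CDDP alone moved the members in both directions, and DUSP1 was the member that rose furthest in each line. In SUM1315 cells DUSP1 was at 205, 175 and 131 in untreated libraries, at 314, 336 and 306 with 2 µM CDDP, and at 369.96, 445 and 422 with 4 µM. No library overlapped between these 3 doses. Of all genes, 42.4% did not overlap between 2 µM and untreated cells and 52.8% between 4 µM and untreated cells. The difference from untreated cells was 0.93 at 2 µM (standard error 0.18, adjusted p = 0.000146) and 1.29 at 4 µM (standard error 0.18, adjusted p = 5.60e-07). In MDA-MB-468 cells DUSP1 was at 48.9, 43.2 and 68.6 untreated, at 67.2, 104 and 71.5 with 1 µM CDDP, and at 219, 201 and 223 with 2.5 µM. The lower dose overlapped with untreated cells (0.59, adjusted p = 0.0647) and the higher dose stood clear of both (2.01, standard error 0.23, adjusted p = 1.36e-09). Between the higher dose and untreated cells, 39% of genes did not overlap.

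With the higher CDDP dose, 3 members rose and 4 fell in SUM1315 cells, beside 22.2% and 21.7% of all genes. DUSP1 was a DEG, beside 7.24% of genes that were DEGs with a higher level. ETV4 rose by 0.39 (adjusted p = 0.00997) and DUSP4 by 0.21 (adjusted p = 0.0386). DUSP5 fell by 0.80, ETV5 by 0.78, DUSP6 by 0.60 and SPRY4 by 0.54. The call of DUSP4 was lost without CDDP replicate 1 or 2 or untreated replicate 1 or 3 (adjusted p up to 0.147), and that of SPRY4 without CDDP replicate 1 or 2 or untreated replicate 3 (adjusted p up to 0.12).

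At the lower dose in SUM1315 cells, 2 members rose and 2 fell, beside 19.4% and 14.5% of genes. DUSP1 and DUSP4 (0.40) rose. DUSP5 (-1.01, a DEG, as were 3.38% of genes with a lower level) and SPRY4 (-0.84) fell. DUSP6, at 5988 ± 489 against 6665 ± 1153, did not pass (adjusted p = 0.252). Among the doses, DUSP6 libraries at 4 µM, between 4253 and 4461, lay below all those at 2 µM and in untreated cells.

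In MDA-MB-468 cells the higher dose changed members at shares near those of all genes. DUSP1 rose and ETV4 fell, 1 of 9 each, beside 13.3% and 11.8% of genes, and DUSP1 was a DEG, beside 1.64% of genes. ETV4 went from 43.3 ± 7.14 to 23.1 ± 1.25 (-0.87, adjusted p = 0.0196), and was lost without CDDP replicate 1 or untreated replicate 2 or 3 (adjusted p up to 0.0915). At the lower dose none rose and 4 fell, beside 10.6% and 9.41% of genes, namely ETV4 (-0.98), ETV5 (-0.56), DUSP4 (-0.50) and DUSP5 (-0.46). Without CDDP replicate 2 at that dose, none of these 4 was called. DUSP4 was also lost without CDDP replicate 1 or untreated replicate 2, and ETV4 and ETV5 without untreated replicate 3. For ETV4, ETV5, DUSP4 and DUSP5 in turn, the adjusted p reached 0.0583, 0.283, 0.131 and 0.129 in the fits that left out a library.

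Other MAP kinase phosphatases were read at the higher CDDP dose too. In SUM1315 cells 1 of 6 on the list rose, beside 22.2% of genes, namely DUSP10, which acts on p38 and JNK, from 22.1 ± 7.87 to 54.8 ± 1.76 (1.33, adjusted p = 0.00265). In MDA-MB-468 cells 3 of 6 rose, beside 13.3% of genes, namely DUSP8 (24.9 ± 4.94 to 61.6 ± 5.43, 1.29), DUSP9 (1.13) and DUSP7 (0.47). The 12 ERK targets moved both ways, with 3 that rose and 5 that fell in SUM1315 cells and 3 that rose and 2 that fell among 11 in MDA-MB-468 cells. Of all genes, 22.2% rose and 21.7% fell in SUM1315 cells and 13.3% and 11.8% did so in MDA-MB-468 cells.

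Doses were set for each line, so the lines are compared at unequal drug concentrations. The effect of the higher CDDP dose differed between the lines (MDA-MB-468 minus SUM1315) for DUSP5 (0.75, adjusted p = 0.00122), ETV5 (0.97, adjusted p = 0.00779) and ETV4 (-1.25, adjusted p = 0.000387). These were 2 of 10 members with a higher and 1 with a lower difference, beside 13.9% and 13.7% of 14460 genes. In each test between the lines, the 10 include SPRY4, which did not pass the filter in MDA-MB-468 cells alone. SPRY4 was called in none of these tests. DUSP1 had a difference of 0.71 between the lines (standard error 0.30, adjusted p = 0.0720).

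Adding the higher CDDP dose to olaparib was compared with olaparib alone. In SUM1315 cells 5 of 10 members rose and none fell, beside 4.35% of genes that rose and 4.09% that fell. DUSP1 rose from 187 ± 49.3 to 395 ± 29.8 (1.11, adjusted p = 0.000108), as the one DEG, beside 0.845% of genes that were DEGs with a higher level. SPRY2, an inhibitor of receptor signalling, was at 79.2, 98.3 and 91.9 with olaparib and at 159.9, 189 and 184 with olaparib and CDDP, which did not overlap (0.98, adjusted p = 0.000264). Here 28.2% of genes did not overlap. ETV4 (0.71), DUSP5 (0.66) and DUSP4 (0.47) rose by less. DUSP6 had 3045 ± 140 and 3338 ± 178 (0.13, adjusted p = 0.443).

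In MDA-MB-468 cells the same comparison gave 2 DEGs among 9 members, both higher, beside 10.1% of genes that rose and 1.28% that were DEGs with a higher level. DUSP1 was at 30.6, 27.01 and 35.8 with olaparib and at 214, 208 and 199 with olaparib and CDDP. Its groups did not overlap, as in 34.9% of genes (2.70, standard error 0.23, adjusted p = 1.04e-13). DUSP6 was at 12.6, 14.0 and 16.3 against 44.4, 37.3 and 34.0, also without overlap, on 20 to 63 reads a library (1.37, standard error 0.38, adjusted p = 0.00532). The effect on DUSP1 was larger in MDA-MB-468 than in SUM1315 cells, by 1.59 (adjusted p = 0.000942), the only member so called, beside 0.871% of genes with a higher difference. For DUSP6 the difference between the lines was 1.23 (standard error 0.42, adjusted p = 0.141). Among the listed ERK targets, 4 of 12 rose and 1 fell in SUM1315 cells and 6 of 11 rose and none fell in MDA-MB-468 cells, with HBEGF higher in both (1.24 and 2.10). Of all genes, 4.35% rose and 4.09% fell in SUM1315 cells and 10.1% and 13.1% did so in MDA-MB-468 cells.

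With the lower CDDP dose, 1 of 10 members rose over olaparib alone in SUM1315 cells, beside 2.09% of genes. It was ETV4 (0.46, adjusted p = 0.0269), lost without olaparib replicate 1 or 3 or combination replicate 1 or 2 (adjusted p up to 0.116). In MDA-MB-468 cells DUSP1 rose to 84.9 ± 13.8 (1.42, adjusted p = 2.36e-05), 1 of 9 and a DEG, beside 2.3% of genes that rose and 0.146% that were DEGs with a higher level.

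**Figure D2:**
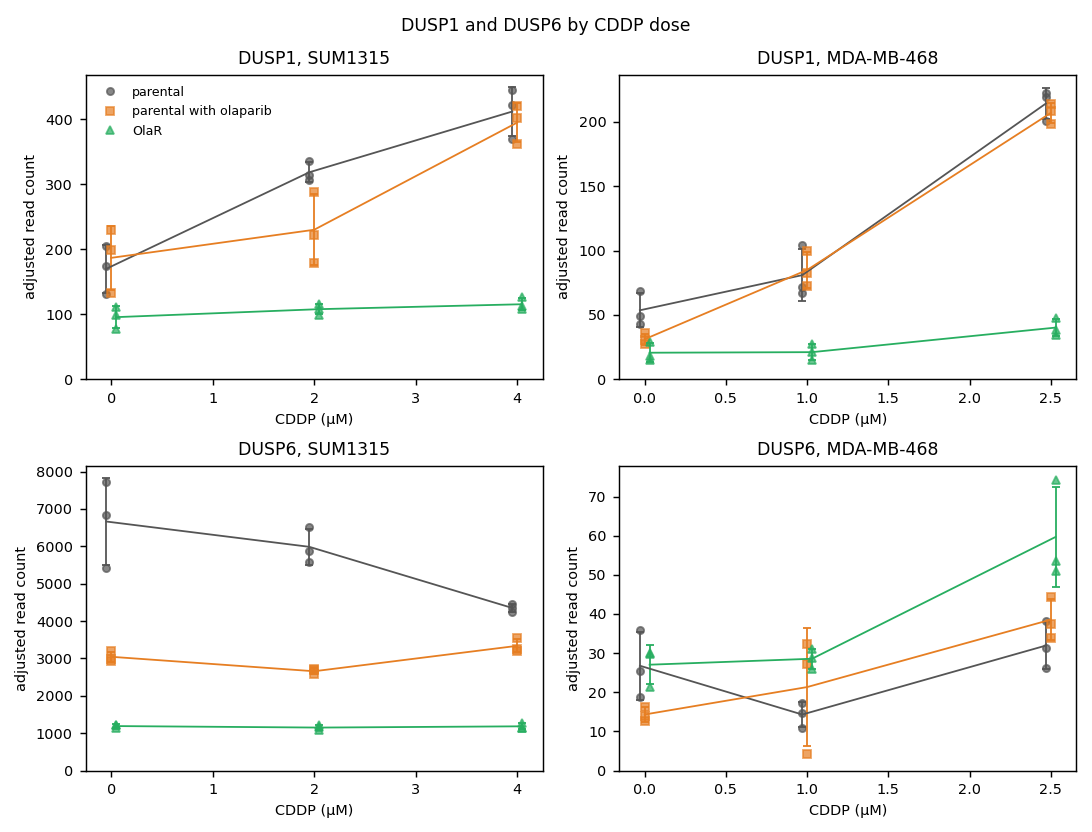
Adjusted read count (linear axes from 0) of DUSP1 (top) and DUSP6 (bottom) against the CDDP dose in µM in SUM1315 (left) and MDA-MB-468 (right), with points for libraries and lines and bars for mean ± SD of 3 libraries in parental cells (grey), parental cells with olaparib (orange) and OlaR cells (green). DUSP1 reaches 412 and 214 in parental cells with the higher dose and 115 and 40.1 in OlaR cells.

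Set against CDDP alone, the combination gave 4 lower members of 10 in SUM1315 cells, beside 6.52% of genes that fell. DUSP5 went from 573 ± 65.8 to 338 ± 31.6 (-0.76, adjusted p = 1.79e-05), DUSP4 fell by 0.62, ETV4 by 0.46 and DUSP6 by 0.38. ETV4 was lost without combination replicate 3 (adjusted p = 0.0508). In MDA-MB-468 cells none of 9 changed in this comparison, beside 4.63% of genes that rose and 7.29% that fell. DUSP1 was at 412 ± 38.3 with CDDP and 395 ± 29.8 with both drugs in SUM1315 cells, and at 214 ± 11.9 and 207 ± 7.83 in MDA-MB-468 cells, differences of -0.06 (standard error 0.18) and -0.05 (standard error 0.23).

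The effect of the higher CDDP dose differed with olaparib for 4 members in SUM1315 cells, beside 9.92% of genes with a higher interaction. The interaction, the effect of CDDP with olaparib minus its effect without, was 1.46 for DUSP5 (adjusted p = 4.25e-08), 0.87 for SPRY4 (adjusted p = 0.0204), 0.73 for DUSP6 (adjusted p = 0.000121) and 0.68 for SPRY2 (adjusted p = 0.0408). DUSP5, for one, fell with CDDP alone and rose when CDDP was added to olaparib. SPRY4 was lost without CDDP replicate 1 or 2 or untreated replicate 3 (adjusted p up to 0.0651), and SPRY2 without any 1 of 7 of the 12 libraries, CDDP replicate 3, olaparib replicate 1 or 3, combination replicate 2 or 3 and untreated replicate 1 or 3 (adjusted p up to 0.121). In MDA-MB-468 cells ETV4 alone was called (1.52, adjusted p = 0.00436), 1 of 9, beside 8.14% of genes. ETV4 was at 43.3 ± 7.14 untreated, at 23.1 ± 1.25 with CDDP, at 13.1 ± 3.75 with olaparib and at 21.3 ± 6.27 with both drugs. It fell with CDDP alone (-0.87) and was not called when CDDP was added to olaparib. These libraries held 15 to 68 reads of it.

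OlaR cells were compared with olaparib-treated parental cells. DUSP5, SPRY2 and ETV4 rose and DUSP1 fell in both lines, and ETV5 and DUSP4 were called in opposite directions. In SUM1315 cells 5 of 10 rose and 4 fell, beside 21.6% and 25.7% of genes, and 4 were DEGs with a higher and 2 with a lower level, beside 7.52% and 9.06%. DUSP6 was at 1219, 1128 and 1224 in OlaR cells against 2984, 3205 and 2945 in olaparib-treated cells (-1.35, standard error 0.09, adjusted p = 1.42e-13). Its libraries did not overlap, as in 55.6% of genes. All 9 OlaR libraries of SUM1315, with or without CDDP, lay between 1081 and 1281, below every parental library, where the lowest value was 2572.

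ETV5 moved with DUSP6 in SUM1315 cells, and other members moved against it. ETV5 was at 491, 366 and 389.6 in OlaR cells and at 1056, 981 and 654 in olaparib-treated cells (-1.09, adjusted p = 2.50e-05). DUSP1 fell from 187 ± 49.3 to 95.6 ± 17.2 (-0.94) and SPRED2 from 95.8 ± 1.18 to 57.9 ± 9.95 (-0.73). SPRED2 was lost without OlaR replicate 2 (adjusted p = 0.0614). DUSP5, by contrast, rose from 214 ± 34.0 to 655 ± 43.3 (1.62, adjusted p = 1.57e-13). ETV4 rose by 1.26, DUSP4 by 1.05, SPRY2 by 1.03 and SPRY4 by 0.53. SPRY4 was lost without OlaR replicate 1 or olaparib replicate 2 or 3 (adjusted p up to 0.0866). SPRED1 did not pass (-0.17, adjusted p = 0.170).

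Levels of the risen genes in OlaR SUM1315 cells were also set beside untreated levels. This is a description, with no test and no share over all genes. DUSP5 was at 655 ± 43.3 in OlaR cells and 998 ± 113 in untreated parental cells, and SPRY4 at 141 ± 11.7 and 204 ± 28.5, so that OlaR libraries lay below the untreated ones. SPRY2 was at 184 ± 16.1 and 164 ± 13.4, with overlap. ETV4, at 292 ± 18.9 and 209 ± 12.9, and DUSP4, at 1699 ± 123 and 1498 ± 53.7, had OlaR libraries above the untreated ones.

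In MDA-MB-468 cells 5 of 9 members rose in OlaR cells and 2 fell, beside 23.6% and 27.9% of genes, and 2 were DEGs with a higher and 1 with a lower level, beside 7.13% and 7.12%. ETV4 was at 46.9, 43.5 and 63.4 against 17.3, 10.1 and 11.9 with olaparib, with no overlap, on 15 to 53 reads a library (1.90, standard error 0.29, adjusted p = 1.47e-07). Its relative ETV5 was at 134, 152 and 136 against 57.7, 57.4 and 47.9, again with no overlap (1.36, adjusted p = 1.25e-08). In this comparison 56.2% of genes did not overlap. DUSP5 (0.67), SPRED1 (0.62) and SPRY2 (0.54) rose by less than 2-fold. DUSP4 was a DEG in the other direction, at 67.7 ± 25.0 against 138 ± 14.3 (-1.07, adjusted p = 1.65e-07).

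DUSP1 and SPRY2 were near the threshold in MDA-MB-468 OlaR cells. DUSP1 fell by 0.61 (adjusted p = 0.0224) with overlapping libraries, and the call was lost without OlaR replicate 1 or 3 or olaparib replicate 3 and in 4 of 7 other settings (adjusted p up to 0.164). SPRY2 was lost without OlaR replicate 1 or 3 or olaparib replicate 2 (adjusted p up to 0.132). DUSP6, at 27.04 ± 4.94 against 14.3 ± 1.83, had a difference of 0.86 (standard error 0.38, adjusted p = 0.0523), which passed in 5 of 7 other settings and in 1 of 6 fits that left out a library.

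The difference between OlaR and olaparib-treated cells itself differed between the lines for 5 of 10 members, a share near that of all genes, 3 higher in MDA-MB-468 and 2 lower, beside 21.4% and 20.3% of genes. It was 2.45 for ETV5 (adjusted p = 1.16e-09), 2.22 for DUSP6 (adjusted p = 2.78e-05) and 0.79 for SPRED1 (adjusted p = 0.000141). It was -2.12 for DUSP4 (adjusted p = 2.95e-13) and -0.95 for DUSP5 (adjusted p = 2.83e-05). ETV5 and DUSP4 were DEGs of opposite direction in the lines. ETV4 (0.64, adjusted p = 0.0541), SPRY2 (-0.48), DUSP1 (0.33) and SPRED2 (0.60) did not pass. SPRY4, counted among the 10, did not pass either and had at most 11 reads in any MDA-MB-468 library.

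**Figure D3:**
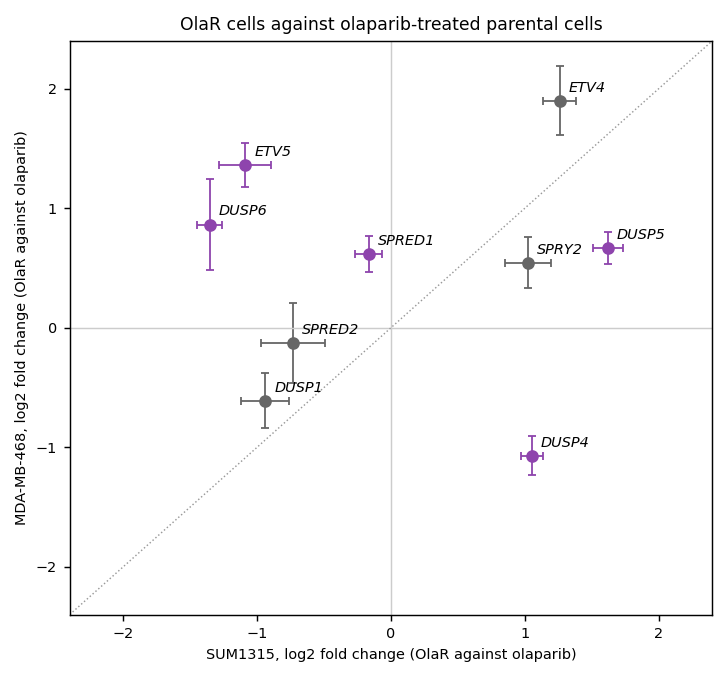
Log2 fold change of OlaR cells against olaparib-treated parental cells in SUM1315 (horizontal) and MDA-MB-468 (vertical) for the 9 genes tested in both lines, with bars of 1 standard error and a dotted line of equal change. Purple marks genes whose change differed between the lines, and ETV5, DUSP6, DUSP4 and SPRED1 lie in the quadrants of opposite sign, at -1.09 and 1.36, -1.35 and 0.86, 1.05 and -1.07, and -0.17 and 0.62.

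The other ERK targets did not all follow the members in OlaR cells. EGR1 fell in both lines, from 1399 ± 160 to 58.2 ± 5.76 in SUM1315 cells (-4.56, adjusted p = 3.56e-23) and from 326 ± 50.5 to 80.4 ± 11.4 in MDA-MB-468 cells (-2.01, adjusted p = 4.52e-19). In SUM1315 cells 5 of the 12 listed ERK targets rose and 2 fell, beside 21.6% and 25.7% of genes. CCND1, the cyclin D1 gene, was among those that rose (0.74). In MDA-MB-468 cells 4 of 11 rose and 2 fell, beside 23.6% and 27.9% of genes. PHLDA1 rose there from 146 ± 9.72 to 441 ± 24.3 (1.59, adjusted p = 2.91e-18). Of the 19 RAS-ERK cascade genes, 2 rose and 6 fell in SUM1315 cells, with EGFR at 716 ± 20.1 and 495 ± 17.9 (-0.53), and 6 rose and 6 fell in MDA-MB-468 cells, with ARAF, a RAF kinase gene, at -1.52. The same shares of all genes stand beside these counts.

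CDDP was then added to OlaR cells. In SUM1315 cells the higher dose raised none of the 10 members and lowered 2, beside 7.13% of genes that rose and 9.61% that fell. SPRY2 was at 165, 195 and 191 in OlaR cells and at 138, 113 and 96.5 with CDDP, without overlap (-0.67, adjusted p = 0.00641). Here 35.1% of genes did not overlap. DUSP4 fell from 1699 ± 123 to 1335 ± 60.7 (-0.35, adjusted p = 0.00406). DUSP1 was at 77.1, 98.5 and 111 against 126, 108 and 112, which overlapped (0.28, standard error 0.18, adjusted p = 0.314).

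In MDA-MB-468 OlaR cells 2 of 9 members rose with the higher dose and none fell, beside 7.43% and 11.2% of genes. DUSP1 went from 20.6 ± 7.18 to 40.1 ± 6.74, on 12 to 39 reads a library (0.97, adjusted p = 0.00155). DUSP6 was at 29.7, 21.3 and 30.1 against 74.3, 53.7 and 51.1, without overlap, as in 34.2% of genes. On 17 to 50 reads a library, its difference was 1.11 (adjusted p = 0.0316). DUSP6 was a DEG, beside 0.738% of genes with a higher level, but was called in 1 of 6 fits that left out a library, that without OlaR replicate 3, and not without a filter on low values (adjusted p = 0.109). The lower dose changed no member in OlaR cells of either line, beside 0.548% and 0.876% of genes that rose and fell in SUM1315 cells and 1.84% and 2.91% in MDA-MB-468 cells.

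The effect of CDDP in OlaR cells was lower than with olaparib in parental SUM1315 cells for 5 of 10 members, beside 4.41% of genes, and higher for none, beside 1.99%. The difference of effects was -1.65 for SPRY2 (standard error 0.24, adjusted p = 4.68e-05), which rose in parental and fell in OlaR cells. It was -0.85 for ETV4 (adjusted p = 0.00213), -0.81 for DUSP4 (adjusted p = 4.25e-05) and -0.79 for DUSP5 (adjusted p = 0.00194). For DUSP1 it was -0.83 (adjusted p = 0.0466), a call lost without any 1 of 9 of the 12 libraries (all but olaparib replicate 2, OlaR replicate 1 and OlaR with CDDP replicate 1, adjusted p up to 0.15) and in 4 of 7 other settings (up to 0.0834). In MDA-MB-468 cells DUSP1 was the one member called, at -1.74 (standard error 0.33, adjusted p = 0.000103), beside 7.47% of genes with a lower value. The OlaR libraries compared there held 12 to 39 reads of DUSP1.

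CDDP in OlaR cells had a higher effect in MDA-MB-468 than in SUM1315 cells for SPRY2 (1.17, adjusted p = 0.00509) and DUSP4 (0.62, adjusted p = 0.0337), 2 of 10, beside 2.88% of genes. DUSP4 was lost without any 1 of 8 of the 12 libraries, all but SUM1315 OlaR replicate 3, SUM1315 OlaR with CDDP replicate 2, MDA-MB-468 OlaR replicate 1 and MDA-MB-468 OlaR with CDDP replicate 3 (adjusted p up to 0.146), and in 4 of 7 other settings, edgeR among them (adjusted p up to 0.181). In MDA-MB-468 OlaR cells SPRY2 was at 67.0 ± 9.43 without and 95.0 ± 10.8 with CDDP (0.50, adjusted p = 0.0971).

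**Figure D4:**
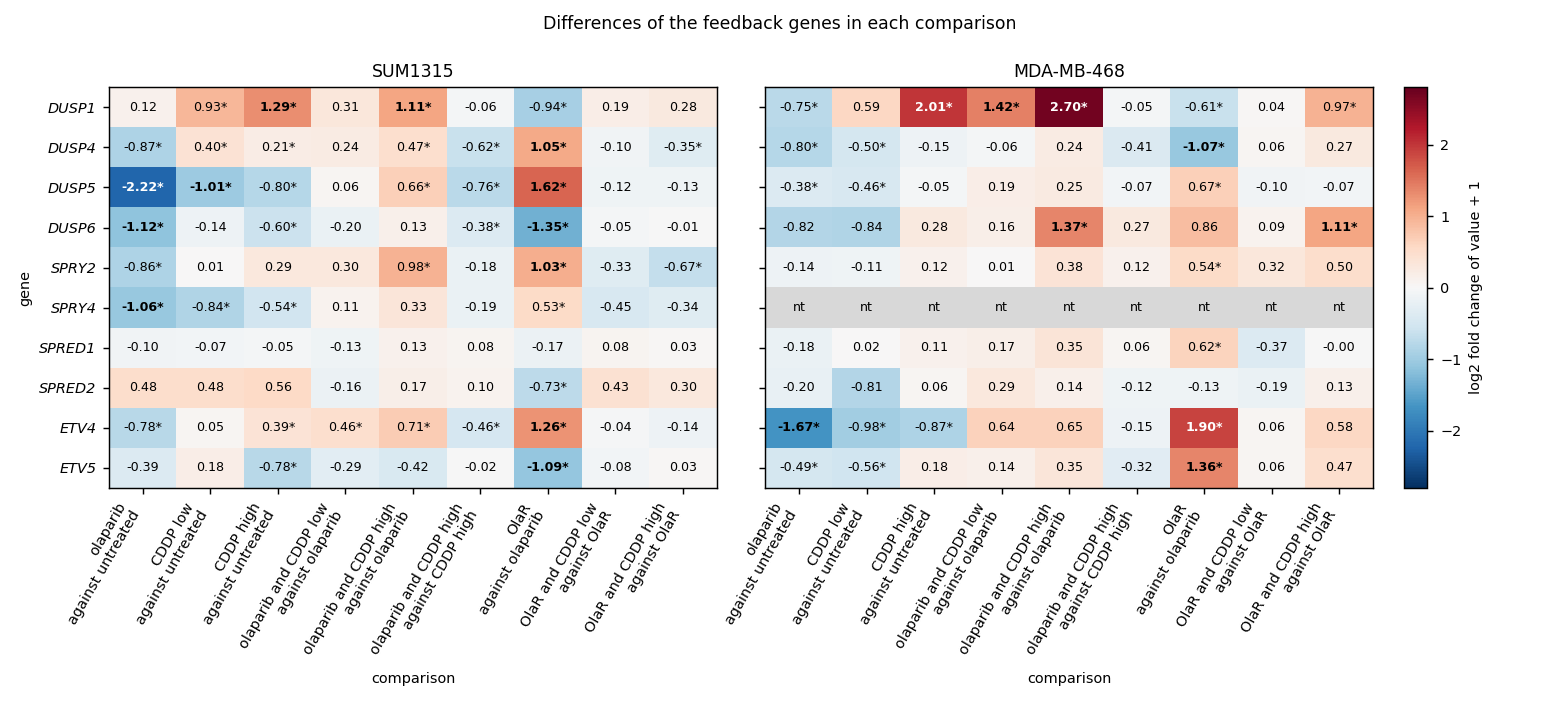
Log2 fold change of the value plus 1 for each gene (rows) in each of 9 comparisons (columns) in SUM1315 (left) and MDA-MB-468 (right), with red for higher, blue for lower, a star for an adjusted p of at most 0.05, bold type for DEGs and nt for not tested. The column of olaparib against untreated cells holds no red starred cell, and the CDDP columns of parental cells hold the highest values of DUSP1, up to 2.70.

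SPRED1 lay between 461 and 624 in all 27 SUM1315 libraries and between 91.7 and 169 in those of MDA-MB-468. Across the 9 comparisons of treatments and of OlaR cells in each line, SPRED1 was called once, in OlaR cells of MDA-MB-468, and SPRED2 once, in OlaR cells of SUM1315.

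Across the 9 condition means of a line, members were correlated in pairs, as a description in which comparisons share libraries and line. In SUM1315 cells Pearson's r was 0.937 between DUSP6 and ETV5 and 0.872 between DUSP1 and SPRED2, and it was -0.571 between ETV4 and ETV5. The OlaR conditions had the lowest means of both DUSP6 and ETV5 there. In MDA-MB-468 cells ETV4 and ETV5 had an r of 0.907, ETV5 and SPRY2 of 0.948, and DUSP4 and ETV5 of -0.731. Of 45 pairs in SUM1315 cells 30 were above 0, and of 36 in MDA-MB-468 cells 21. The share for pairs of all genes was not computed, so these counts do not set the members apart. By the same measure, the genes most like DUSP6 in SUM1315 cells were OAF (0.991), MANBAL, STAG2, IBTK and GPT2 (0.985), among 10118 genes. In MDA-MB-468 cells they were STK17B (0.955), PPP1R15A, POLR3C, FAM53C and ZNF229 (0.942), among 10092 genes, where DUSP6 itself has few reads. The 2 lists share no gene, and how often this holds for other genes was not tested.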

How the data were processed

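RNA-seq of 54 libraries of 2 established TNBC lines was analysed, 3 for each of 18 conditions. By the submitters' processing notes, reads were handled with CASAVA 1.8.2, FastQC, STAR and HTSeq on hg38. The signal in the authors' deposited table is reads per gene that edgeR had brought to 5585170 reads a library, with a common dispersion of 0.01039. The adjustment was inverted to whole reads, which gave back 100% of 1483380 values within a relative tolerance of 1e-06. The deposited comparison tables hold the authors' fold changes and p-values and were not used.

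Because the deposited values are not whole, limma 3.58.1 in R 4.3.3, with an intensity trend on log2(value + 1), was the main test. It used the adjusted values, and the recovered reads served the edgeR and DESeq2 alternatives. The fit held the 27 libraries of a line and 9 condition means, or all 54 libraries for differences between lines. A gene was kept if 3 or more libraries of the fit reached a value of 10, so that SPRY4 was kept in the fit of both lines. The rule for named genes took all members, up to 3 genes of a pathway list by smallest p in a comparison, and the 5 genes most like DUSP6 with a mean log2 of at least 5. One gene that this rule names is not reported here. The members and lists were chosen with earlier results of these data known. Alternatives were a pseudocount of 5, no filter, no limit on the fold, only the libraries compared, edgeR 4.0.16 on recovered reads with either size factor, DESeq2 1.42.0, a replicate block and leaving out each library. The test was checked on simulated data. Gene positions are those of GENCODE release 44, and RefSeq promoter windows were matched for 6 of the 10 members. Comparisons that share control libraries are not independent.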

Additional observations from a re-analysis of the deposited data

Results flagged for a closer look

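Each of these results is a test of a difference between effects that passed the threshold of an adjusted p of 0.05, and no explanation was tested. Those of -0.83 for DUSP1, 0.87 for SPRY4 and 0.68 for SPRY2 were lost without some single libraries, as given above. In SUM1315 cells, the effect of the higher CDDP dose in OlaR cells minus that with olaparib in parental cells was -1.65 for SPRY2, -0.85 for ETV4, -0.83 for DUSP1, -0.81 for DUSP4 and -0.79 for DUSP5. In MDA-MB-468 cells it was -1.74 for DUSP1. The effect of CDDP with olaparib minus that without was 1.46 for DUSP5, 0.87 for SPRY4, 0.73 for DUSP6 and 0.68 for SPRY2 in SUM1315 cells and 1.52 for ETV4 in MDA-MB-468 cells.

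The other differences compare the lines, as MDA-MB-468 minus SUM1315, at unequal doses. The effect of CDDP alone differed by 0.97 for ETV5, 0.75 for DUSP5 and -1.25 for ETV4. That of CDDP added to olaparib differed by 1.59 for DUSP1, and that of CDDP in OlaR cells by 1.17 for SPRY2 and 0.62 for DUSP4. The last of these was lost without any 1 of 8 of the 12 libraries. OlaR cells against olaparib-treated cells differed by 2.45 for ETV5, 2.22 for DUSP6, 0.79 for SPRED1, -0.95 for DUSP5 and -2.12 for DUSP4.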

How the results depend on the processing

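No member changed the direction of a called difference under any setting run. Of 83 calls of single members, 62 were kept under every setting, 21 were lost without at least 1 library and 12 of these under at least 1 other setting. A further 17 results of single members were not called in the main test but were under at least 1 setting that kept every library. With no limit on the fold, the members called in SUM1315 cells rose from 3 to 6 for olaparib, from 1 to 7 for the higher and from 1 to 4 for the lower CDDP dose, from 1 to 5 for the higher dose added to olaparib, from 0 to 1 for the lower dose added to olaparib, from 0 to 4 for the combination against CDDP and from 0 to 2 for the higher dose in OlaR cells. In MDA-MB-468 cells they rose from 1 to 5 for olaparib, from 1 to 2 for the higher and from 0 to 4 for the lower CDDP dose, from 3 to 7 for OlaR against olaparib and from 1 to 2 for the higher dose in OlaR cells. For OlaR against olaparib in SUM1315 cells, 4 DEGs with a higher and 2 with a lower level became 5 members that rose and 4 that fell.

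Without a filter, the higher dose in MDA-MB-468 OlaR cells gave 0 DEGs among the members (DUSP6 was lost, with more genes tested), and its difference between the lines gave 1 call. For the interaction of CDDP with olaparib in MDA-MB-468 cells, 1 call became 2 with only the libraries compared, and 3 with edgeR on recovered reads, with DESeq2 size factors and with the DESeq2 Wald test. For the difference between lines in CDDP alone, 3 calls became 5, 6, 5 and 6 under these 4 settings, and for CDDP added to olaparib 1 became 2 under each. The DESeq2 Wald test gave 4 calls for the difference between lines in OlaR cells, against 2. The cause of these gains was not tested.

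Leaving out 1 library gave 0 to 2 DEGs for the lower CDDP dose and 0 to 2 for the higher dose added to olaparib in SUM1315 cells, and 2 to 4 calls for the interaction with olaparib there. It gave 0 to 2 DEGs for the lower CDDP dose and 0 to 1 for the higher dose in OlaR cells in MDA-MB-468 cells, and 1 to 2 calls for the difference between lines in OlaR cells.

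Replicate numbers are shared between conditions, but libraries of 1 number did not deviate together (correlations of -0.098 to 0.163 in SUM1315 and -0.047 to 0.043 in MDA-MB-468 cells). With the number as a replicate block, 4 in place of 5 members were called for the interaction of CDDP with OlaR in SUM1315 cells, since DUSP1 had an adjusted p of 0.0529, and no count of DEGs among the members changed. At an adjusted p of 0.05 without a limit on the fold, limma with this block lost ETV5 with olaparib in MDA-MB-468 cells (0.0513), leaving 4 members that fell, and gained SPRED2 with the higher CDDP dose in SUM1315 cells (0.0455), giving 4 that rose. The median of all genes moved furthest without a filter, in SUM1315 cells from 0.0079 to 0.11 for the interaction of CDDP with olaparib and from -0.0031 to -0.10 for the higher CDDP dose. OlaR libraries are shallower than parental ones, and in MDA-MB-468 cells DUSP6 and SPRY4 have too few reads for precise folds. The same holds there for ETV4 (15 to 68 reads a library), SPRED2 (7 to 48) and DUSP1 in OlaR cells (10 to 39).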
